A study of Mus musculus with 2 samples.

Results

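miR-126, miR-210, miR-221, miR-222 and miR-218 are microRNAs of blood vessels and of the response to low oxygen, and they were examined here in ischemic mouse hindlimb muscle by small RNA sequencing. They were chosen by name: the precursors (hairpins, from which the mature miRNA is cut) mmu-mir-126a, mmu-mir-126b, mmu-mir-210, mmu-mir-221, mmu-mir-222, mmu-mir-218-1 and mmu-mir-218-2, written miR-126a and so on below, which are 7 of the 1187 precursors listed. The hypercholesterolemic library (HC) came from ApoE-/- mice, kept on a high-fat diet according to the series' design text, and the normocholesterolemic library (NC) from C57Bl/6 mice of control genotype. Both were taken from hindlimb muscle at day 1 after the femoral artery had been removed, so both are ischemic and neither is an uninjured muscle. The sources used here do not give the age of the mice, the number of mice per library or the strain of the ApoE-/- mice. Genotype and diet differ together between the libraries and cannot be told apart. With 1 library per group the spread between animals is unknown, no test was possible, and every interval below is a 95% interval of counting error only.

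miRNAs guide the silencing complex to messenger RNAs through the seed, bases 2 to 8 of the mature strand. miR-126 is the best known miRNA of endothelial cells. It lies in Egfl7, a gene of vessel growth, and favours signalling by vascular endothelial growth factor by repressing the inhibitors Spred1 and Pik3r2. miR-210 is a direct target of the hypoxia-inducible factor HIF and represses Iscu, an assembly factor of iron-sulphur clusters, and the ephrin Efna3. miR-221 and miR-222 come from neighbouring hairpins, repress the receptor Kit and the cell cycle inhibitor Cdkn1b, and are made in endothelium and in vascular smooth muscle. miR-218 is cut from introns of the guidance genes Slit2 and Slit3 and represses Robo1, a Slit receptor. It is also abundant in motor neurons.

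The mature sequences show which of these miRNAs can share targets and which share reads. They were read from RefSeq (GRCm38.p6, the assembly of mm10), which held the hairpins of all 7 and 11 mature names for them. The strands below are given 5′ to 3′ with the seed in capitals.
miR-126a-3p: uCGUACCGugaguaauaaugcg
miR-126b-5p: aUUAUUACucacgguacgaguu
miR-126b-3p: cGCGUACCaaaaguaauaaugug
miR-210-3p: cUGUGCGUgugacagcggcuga
miR-221-3p: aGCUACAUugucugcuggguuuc
miR-222-3p: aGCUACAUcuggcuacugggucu
miR-218-5p: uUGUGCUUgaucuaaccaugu
miR-221-3p and miR-222-3p had the same seed and the same first 8 bases, and then diverged, with 11 of 23 positions equal when aligned from base 1. In the RefSeq set the seed recurs in a single other mature miRNA, miR-1928, and its precursor had 0 counts in both libraries. A seed of the miR-218 arms recurred in miR-7002-3p and in miR-496b, whose precursors also had 0 counts in both. The seeds of miR-126a-3p, of both miR-126b arms and of both miR-210 arms recurred in no other mature miRNA of the set. miR-126a-5p and miR-222-5p were not searched. A count of 0 allows up to 0.0918 CPM in HC and 0.0717 CPM in NC.

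The libraries held 31198050 counts over precursors in HC and 43848576 in NC. Precursors that overlap or have copies may list the same read, so these totals, and shares of them, may count a read more than once. Levels are given as CPM, counts relative to the library size times 1e6, after scaling by the trimmed mean of M-values (TMM), and folds as HC over NC. Muscle markers were abundant in both libraries. The 6 precursors of miR-1, miR-133 and miR-206 summed to 136143 CPM in HC and 135986 in NC, with copies counted separately. Most of this sum came from the miR-133a copies, each at a log2 fold of -0.01. The miR-1a copies lay at 0.47, miR-133b at -0.20 and miR-206 at -0.09. The share of listed counts outside all precursors was 55.9% in HC and 44.1% in NC. In bulk tissue, fewer cells of a type and less RNA per cell cannot be told apart.

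miR-126 was by far the most abundant of the 7 and lay at nearly the same level in both libraries. The miR-126a hairpin (chr2:26591357-26591429, plus strand, mm10) lies in Egfl7, between exons in 8 of the 9 transcripts that span it and within an exon of 1. It had 372810 counts in HC, 1.19% of the counts over precursors (1.19 to 1.20%), and 466452 in NC, 1.06% (1.06 to 1.07%). These percentages leave out the counts outside all precursors, which were a larger share in HC. The miR-126a counts are 11407 CPM in HC and 11144 CPM in NC, rank 15 and rank 17 among all precursors. The log2 fold was 0.03 (0.03 to 0.04), a 1.02-fold difference (1.02 to 1.03). Of the 222 precursors that averaged 10 CPM or more and were compared, 23 lay nearer to equality. The precursors next to it in level were miR-27b and miR-181a-2 above and miR-181a-1 and miR-378a below, with log2 folds of -0.05, 0.15, 0.19 and -0.13.

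miR-126b (chr2:26591363-26591420, minus strand) is annotated inside the miR-126a hairpin on the other strand. Its counts were 323655 in HC and 410359 in NC, or 9903 and 9804 CPM, with a log2 fold of 0.01 (0.01 to 0.02). Next to it in level lay let-7f-2 and let-7f-1, at -0.45 and -0.44, and miR-127 and miR-21a, at 0.05 and -0.08. The hairpins are shown to make their overlap visible, with miR-126a-3p and miR-126b-5p in capitals.
miR-126a hairpin: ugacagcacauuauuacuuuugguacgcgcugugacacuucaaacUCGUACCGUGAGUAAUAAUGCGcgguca
miR-126b hairpin: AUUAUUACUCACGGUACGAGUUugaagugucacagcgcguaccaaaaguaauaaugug
All 58 bases of the miR-126b hairpin are complementary to 1 run of the miR-126a hairpin, which holds 15 more bases. miR-126a-3p reaches 3 bases past the end of the miR-126b hairpin, and 19 of its bases are complementary to miR-126b-5p. Counts of miR-126b were 0.868 of those of miR-126a in HC (0.864 to 0.872) and 0.880 in NC (0.876 to 0.883). These intervals take the counts of the 2 hairpins as independent, which they are not if reads are listed in both. The sources used here do not give the counting rule, so reads of the 2 strands cannot be told apart and the separate level of miR-126b is uncertain. In all, 16 pairs of overlapping precursors on opposite strands had counts in both libraries. The counts of 10 of these pairs differed by under 1% in both libraries. The other 6 differed by 6.90 to 98.4% in HC and by 0 to 99.2% in NC, and miR-126a and miR-126b are among these 6.

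**Figure D1:**
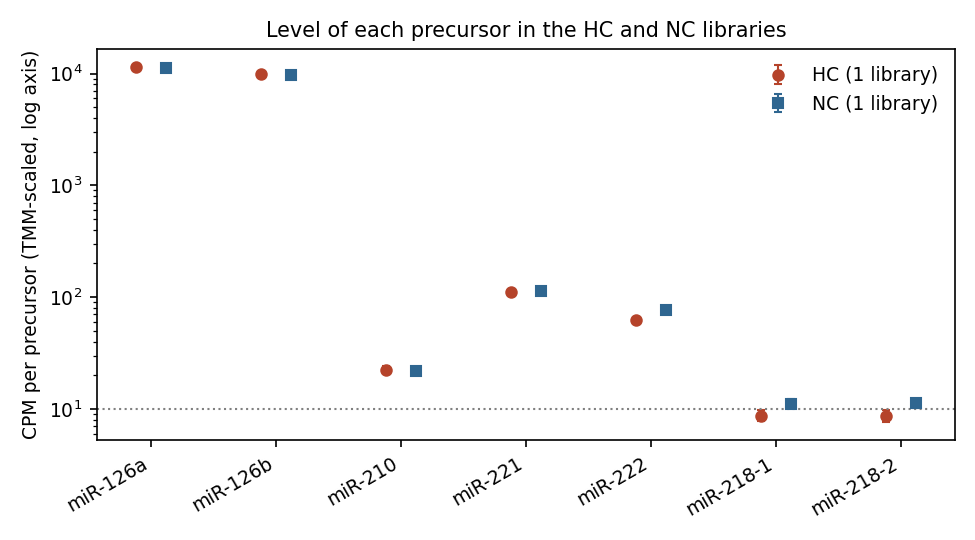
Level of each of the 7 precursors in CPM (log axis) in the HC library (circles) and the NC library (squares), 1 library each, with 95% counting intervals, which are mostly smaller than the symbols. The dotted line marks 10 CPM. miR-126a and miR-126b lie between 9804 and 11407 CPM, miR-221 near 111 to 113, and both miR-218 precursors near the line, below it in HC and above it in NC.

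miR-210, the HIF target, was low in both libraries and did not differ detectably at this depth under TMM scaling. Its hairpin (chr7:141221384-141221493, minus strand) lies outside any other gene of GENCODE M21, 2726 bp from Rassf7. It had 734 counts in HC and 910 in NC, which are 22.5 and 21.7 CPM, rank 185 and rank 186. The log2 fold of 0.05 had an interval from -0.10 to 0.19, so under TMM these counts leave room for a level 1.07-fold lower to 1.14-fold higher in HC. Other scalings widen this range. The log2 fold was 0.18 (0.04 to 0.32) with plain totals and -0.07 (-0.21 to 0.08) with the denominators of the authors' own scaled column. Both libraries come from ischemic muscle, so these values say nothing of how far ischemia itself moved miR-210. The precursors next in level, miR-540 and miR-194-2 above it and miR-501 and miR-1943 below it, had log2 folds of 0.20, -0.38, 0.41 and 0.48.

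miR-221 and miR-222 differed from each other in how they compared between the libraries. Their hairpins lie 504 bp apart on the minus strand of the X chromosome (chrX:19146294-19146388 and chrX:19146893-19146971), outside any other annotated gene, the nearest being Gm14636 at 10593 and 10010 bp. miR-221 had 3624 counts in HC and 4725 in NC, or 111 and 113 CPM, with a log2 fold of -0.03 (-0.09 to 0.04). miR-222 had 2031 counts in HC and 3215 in NC, or 62.1 and 76.8 CPM, with a log2 fold of -0.31 (-0.39 to -0.23), 1.24-fold lower in HC (1.17 to 1.31). Thus miR-221 was level within counting error, while miR-222 was lower in HC. Among all 222 precursors compared, 26 had a lower fold than miR-222 and 170 lay nearer to equality. The log2 folds of the precursors next to miR-221 in level were 0.15 for miR-15a, -0.16 for miR-204, 0.07 for miR-152 and -0.21 for miR-1839. Those next to miR-222 were 0.26 for miR-320, 0.09 for miR-365-1, 0.04 for miR-361 and -0.23 for miR-181d, so miR-222 lay below its 4 neighbours. The interval of miR-181d (-0.32 to -0.15) overlapped that of miR-222.

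The ratio of miR-222 to miR-221 within a library does not depend on how the libraries are scaled. It was 0.560 in HC (0.531 to 0.592) and 0.680 in NC (0.650 to 0.712), and the intervals did not overlap. The ratio in HC was 0.824 of that in NC (0.768 to 0.884), a log2 difference of -0.28 (-0.38 to -0.18). Larger differences occurred in other pairs of these libraries. Of 98 pairs of precursors within 10 kb on 1 strand, both at a mean of at least 10 CPM, 32 had a larger difference, and the median size was 0.18. With both at 50 CPM or more, 9 of 42 pairs had a larger one, and the median was 0.14. The pairs include all within that distance, adjacent or not. Several with a larger difference involve precursors with copies elsewhere, such as let-7f-1 and miR-1a-2, whose reads may be listed at each copy. Those pairs are therefore no clean comparison for miR-221 and miR-222. Others with a larger difference join precursors without a numbered copy, such as miR-409 and miR-369 (0.81) and miR-127 and miR-434 (0.50). The mature arms share their first 8 bases but not the rest, as printed above, and a precursor's count sums both its arms.

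**Figure D2:**
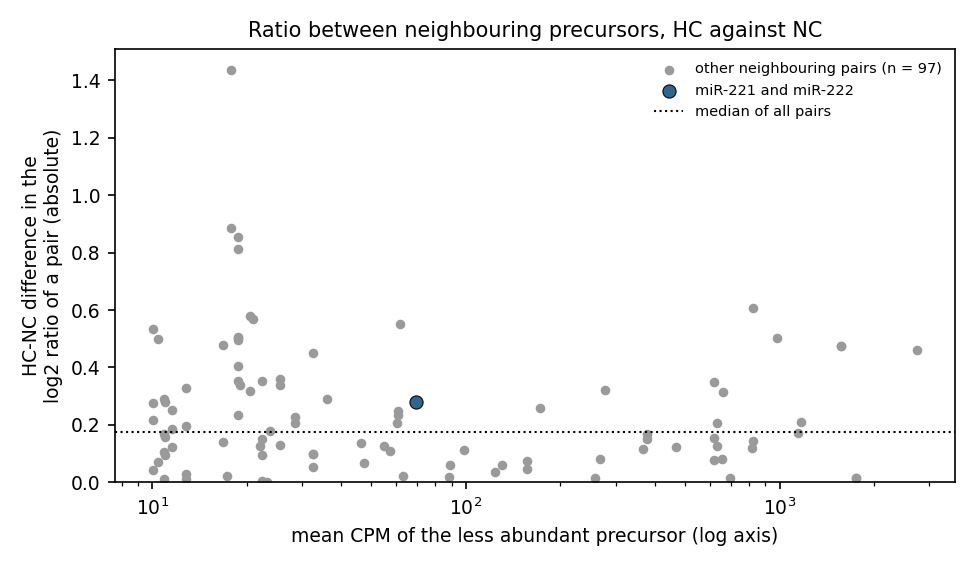
Size of the HC to NC difference in the log2 count ratio of 98 pairs of neighbouring precursors (y axis) against the mean CPM of the less abundant one (x axis, log). miR-221 and miR-222 (large point, 0.28) lie above the median of 0.18 (dotted line), and 32 pairs lie higher.

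miR-218 was the least abundant of the group and was lower in HC. miR-218-1 (chr5:48223942-48224051, plus strand) lies in an intron of Slit2 and miR-218-2 (chr11:35616816-35616925, plus strand) in an intron of Slit3, each on the strand of its host. miR-218-1 had 285 counts in HC and 464 in NC, or 8.72 and 11.1 CPM, with a log2 fold of -0.35 (-0.56 to -0.13). miR-218-2 had 282 and 470 counts, or 8.63 and 11.2 CPM, with a log2 fold of -0.38 (-0.60 to -0.16). Both were lower in HC beyond counting error, and both lay just under the mean of 10 CPM needed for the comparison across precursors, at 9.90 and 9.93 CPM. The other precursors next to them in level had log2 folds of 0.63 for miR-499, 0.26 for miR-154, 0.21 for miR-511 and 0.10 for miR-138-2, all above those of miR-218.

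The Slit2 and Slit3 copies share their 5p arm, and the rule by which reads of that arm were counted is not given. The hairpins are shown with miR-218-5p, which both contain, in capitals.
miR-218-1 hairpin: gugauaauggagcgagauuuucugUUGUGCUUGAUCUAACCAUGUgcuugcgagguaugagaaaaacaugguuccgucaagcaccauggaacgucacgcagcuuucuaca
miR-218-2 hairpin: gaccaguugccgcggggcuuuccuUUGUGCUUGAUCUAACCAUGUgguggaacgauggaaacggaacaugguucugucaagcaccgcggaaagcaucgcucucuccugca
The longest run shared by the hairpins is 22 bases, and it spans this arm. The ratio of miR-218-2 to miR-218-1 was 0.989 in HC (0.836 to 1.17) and 1.01 in NC (0.889 to 1.15), where the intervals take the counts of the copies as independent, which they are not if reads are listed in both. Copies of other miRNAs held equal or nearly equal counts. The copies of miR-9 had 162 each in HC and 347 or 348 in NC, and those of miR-124 had 22 each in HC. Such counts point to reads listed at every copy, although the counting rule itself is not given. The nearly equal folds of miR-218-1 and miR-218-2 are therefore not given as separate observations, and the share of each host gene is unknown.

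miR-9, a marker of neurons, was lower in HC together with miR-218. The 6 precursors of miR-9 and miR-124, none of them at 0, summed to 16.9 CPM in HC and 27.4 CPM in NC, a log2 fold of -0.70. Copies were counted separately in this sum, and miR-9 made up most of it. All 6 averaged under the 10 CPM needed for the comparison across precursors. The copies of miR-9 had log2 folds of -0.75 to -0.74 (162 counts each in HC, 347 or 348 in NC), and those of miR-124, with 22 counts each in HC and 34 or 35 in NC, of -0.31 to -0.27 with intervals that held 0. The ratio of miR-218-1 to miR-9-1 was 1.76 in HC (1.45 to 2.15) and 1.34 in NC (1.16 to 1.54), and the ratio was higher in HC by a log2 difference of 0.40 (0.05 to 0.74), so the gap between the libraries was wider for miR-9 than for miR-218. The part of nerve tissue in the miR-218 counts was not tested.

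**Figure D3:**
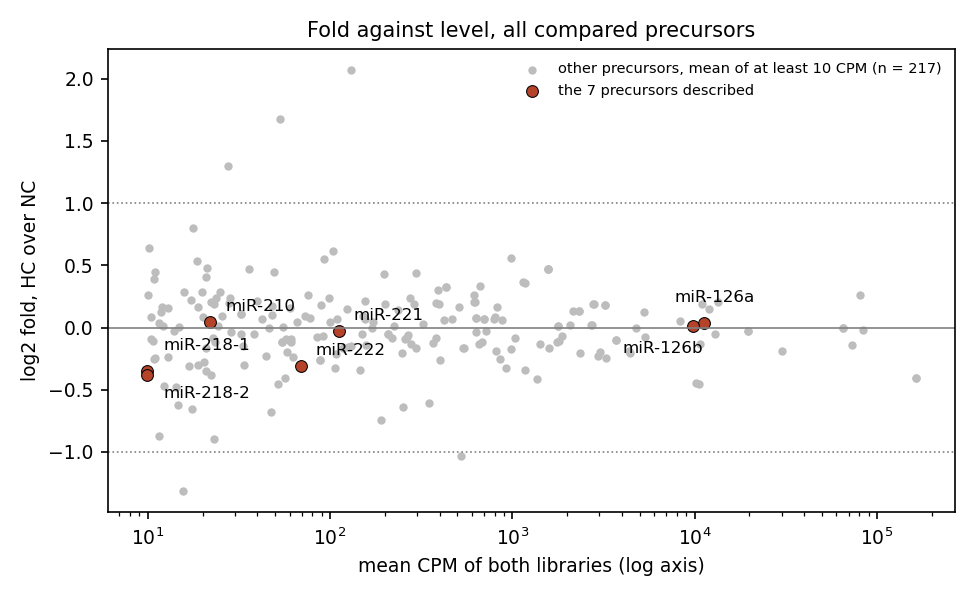
Log2 fold of HC over NC (y axis) against mean CPM (x axis, log) for the 222 compared precursors (grey, and 5 of the coloured points) and for both miR-218 precursors at 9.90 and 9.93 CPM. Dotted lines mark 2-fold. The 7 coloured points lie between -0.38 and 0.05, miR-222 and miR-218 below the rest.

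None of the 7 reached 2-fold. Among the 5 that averaged 10 CPM or more, 0 were past 2-fold and 0 past 1.5-fold with an interval that excluded equality, where 2.25% and 7.21% of all 222 compared precursors were. By the interval alone, miR-126a and miR-126b were higher in HC and miR-222 lower, while miR-210 and miR-221 held equality. Over all compared precursors 39.6% were higher and 43.7% lower by the same criterion, so such a call is common at this depth. The 5 had a median log2 fold of 0.01, against 0.00 over all, whose central 90% ran from -0.47 to 0.47. miR-126a and miR-126b overlap and may share reads, so the 5 are not all separate observations.

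The order of levels was the same in both libraries, whether per precursor or per base of hairpin, apart from the overlapping and the duplicate hairpins. Per base of hairpin, levels were 171 CPM for miR-126b and 156 for miR-126a in HC, followed by 1.17 for miR-221, 0.787 for miR-222, 0.204 for miR-210, and 0.0793 and 0.0784 for miR-218-1 and miR-218-2. In NC the values in the same sequence were 169, 153, 1.19, 0.972, 0.198, 0.101 and 0.102 CPM per base. By the intervals of their shares of counts, taken as independent, the neighbours from miR-221 down differed beyond counting error, apart from miR-218-1 and miR-218-2. miR-126b stood above miR-126a only per base, since its hairpin is shorter and its counts were lower in both libraries.

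The directions near equality depended on the scaling, and those of miR-222 and miR-218 did not. Plain totals move every log2 fold by 0.13, and the denominators of the authors' own scaled column move it by -0.11. With plain totals miR-126a, miR-126b, miR-210 and miR-221 were all higher in HC, at 0.17, 0.15, 0.18 and 0.11, where 60.8% of all compared precursors were higher and 21.2% lower. With the authors' denominators, which bring 7 of the 7 to a mean of at least 10 CPM, 6 were lower, miR-210 held equality and none was higher, where 24.0% of all were higher and 57.9% lower. miR-126, miR-210 and miR-221 therefore have no firm direction. miR-222 lay between -0.42 and -0.17 over the 5 scalings and its interval excluded 0 in each. The miR-218 values lay between -0.49 and -0.21, and the interval of miR-218-1 reached 0 with plain totals (-0.43 to 0.00).

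**Figure D4:**
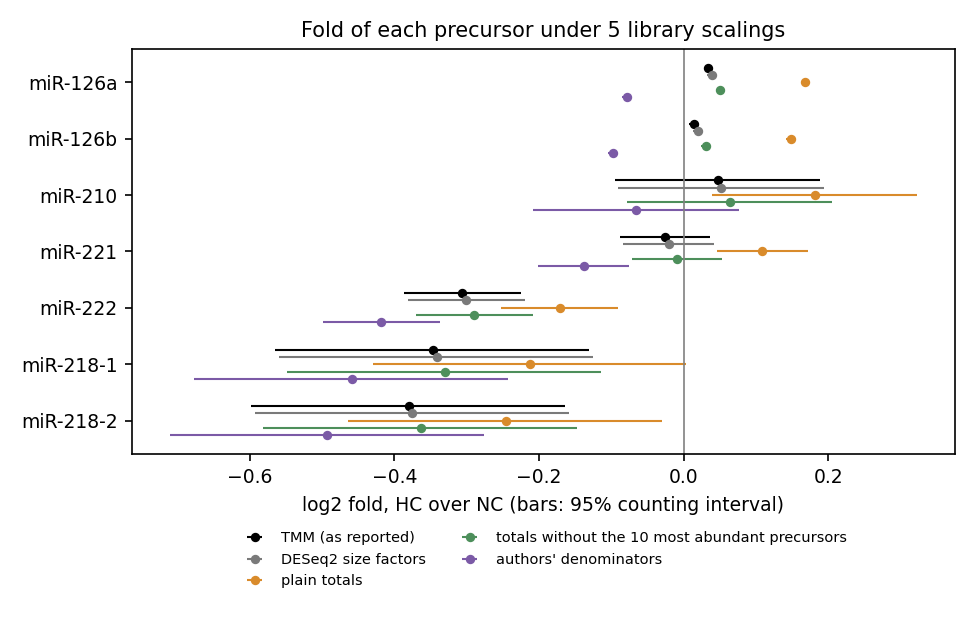
Log2 fold of HC over NC (x axis) for each of the 7 precursors under 5 ways of scaling the libraries (colours), with 95% counting intervals as bars. miR-222 and both miR-218 precursors stay below 0 under every scaling, although the interval of miR-218-1 reaches 0 with plain totals, and miR-126a, miR-126b, miR-210 and miR-221 change side.

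Set against miR-126a within each library, which needs no scaling, miR-222 and miR-218 stood apart from miR-210 and miR-221. The ratio of miR-210 to miR-126a differed by a log2 of 0.01 (-0.13 to 0.15) between HC and NC, and that of miR-221 by -0.06 (-0.12 to 0.00). The ratio of miR-222 differed by -0.34 (-0.42 to -0.26) and that of miR-218-1 by -0.38 (-0.59 to -0.17). Relative to the endothelial miR-126a, miR-210 and miR-221 thus held equality, and miR-222 and miR-218 were lower in HC. Each of these differences is the log2 fold of the member less that of miR-126a, 0.03. They restate the folds above with miR-126a as the reference and add no separate support.

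Other miRNAs of vessel growth were split between higher and lower, as were the compared precursors as a whole. Of 32 further precursors listed for angiogenesis, 27 averaged 10 CPM or more. Of these, 10 were higher in HC, 14 lower and 3 held equality, with 0 at 2-fold, and their median log2 fold was -0.04 against 0.00 over all compared. Copies were counted separately in the splits of this list, and with 1 precursor per set of copies 24 remain. The background was 39.6% higher, 43.7% lower and 2.25% at 2-fold. The list's split was 17 higher and 5 lower with plain totals (background 60.8% and 21.2%) and 5 higher and 19 lower with the authors' denominators (background 24.0% and 57.9%). Its most abundant members were miR-10b at -0.02, miR-10a at 0.20 and miR-27b at -0.05, miRNAs that act on vessel sprouting. The range ran from -0.45 for let-7f-2 to 0.33 for miR-100.

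The further miRNAs linked to hypoxia had a median near equality, with most members off it by their intervals. All 19 listed precursors were compared, of which 8 were higher in HC, 9 lower and 2 held equality, with 0 at 2-fold and a median log2 fold of -0.02. Copies were counted separately in the splits of this list, so the 19 are not all separate observations. With 1 precursor per set of copies 14 remain. Over all compared precursors 39.6% were higher, 43.7% lower and 2.25% at 2-fold. The list's split was 15 higher and 0 lower with plain totals, where 60.8% and 21.2% of all were, and 4 higher and 15 lower with the authors' denominators, where 24.0% and 57.9% of all were. The most abundant, counting copies, were both miR-26a precursors at -0.02 and miR-27b at -0.05. The range ran from -0.16 for miR-103-2 to 0.36 for miR-181b-1, and 8 precursors belong to both lists, 25% of the angiogenesis list and 42.1% of the hypoxia list.

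Markers of other cell types went in several directions. Those of smooth muscle, miR-143 and miR-145a, which share vessels with miR-221 and miR-222, summed to 69344 CPM in HC and 76571 in NC (log2 fold of the sum -0.14). The 5 epithelial precursors summed to 125 and 165 CPM (-0.40). miR-144 and miR-451a of erythrocytes summed to 609 and 468 CPM (0.38), miR-223 and miR-150 of leukocytes to 482 and 489 CPM (-0.02), with miR-223 at 0.44 and miR-150 at -0.75. The leukocyte miR-142, named after its value was seen because the files list it as mmu-mir-142a and mmu-mir-142b, was more abundant than these, with 1784 CPM for mmu-mir-142a in HC and 1771 in NC and a log2 fold of 0.01 (-0.01 to 0.03). None of these markers was at 0 in either library. Their part in the values of miR-222 and miR-218 was not tested.

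**Figure D5:**
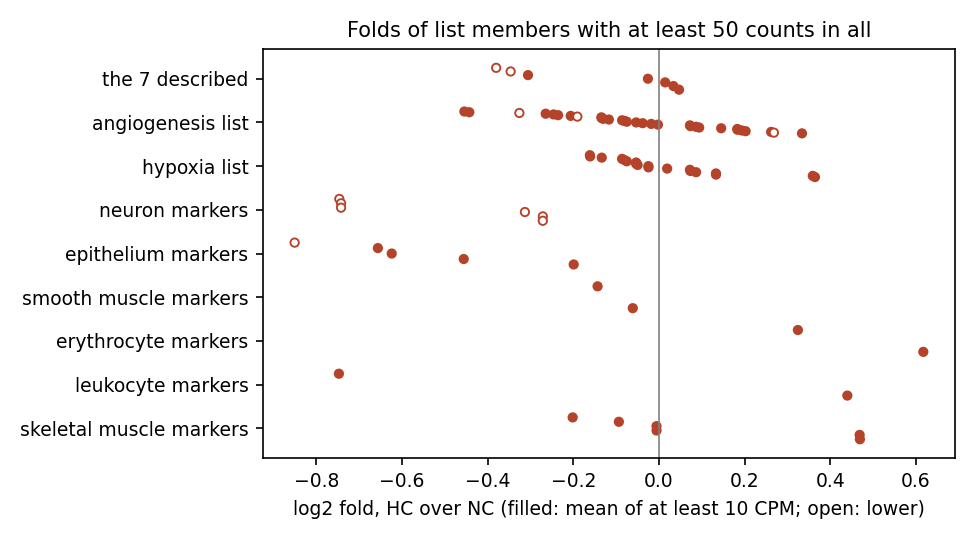
Log2 fold of HC over NC (x axis) of the 7 precursors, the 2 lists and 6 groups of cell type markers (rows), 1 point per precursor with at least 50 counts over both libraries; filled points lie at a mean of at least 10 CPM. The angiogenesis and hypoxia lists straddle 0, and all neuron and epithelium markers lie below it.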

How the data were processed

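Small RNA of ischemic hindlimb muscle was sequenced in 2 libraries, 1 per group, grouped by the phenotype label. RNA was prepared with Trizol, a mirVana kit and the TruSeq small RNA chemistry, per the labels' protocols. Tools named in the submitters' processing notes are TopHat2 2.0.10, HTSeq 0.5.4 and CASAVA 1.8.2, with build mm10. The sources used here do not give the role of each or the handling of multiple alignments. The authors deposited whole-number read counts per precursor, with 5 summary rows that stayed out of library sizes. The deposited column headed RPM is a signal that the authors scaled, a constant multiple of the count (denominators 27222821 in HC and 32252170 in NC), and served only as an alternative.

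Library sizes were scaled by TMM in edgeR 4.0.16 (R 4.3.3), without an edgeR test. DESeq2 1.42.0 gave alternative size factors. Folds have exact conditional binomial (Clopper-Pearson) intervals at 95%, shares exact Clopper-Pearson intervals, and differences of ratios Woolf intervals. Because reads carried no molecular identifiers, they may repeat molecules, and intervals cover counting error only. A precursor was compared where it averaged 10 CPM or more, and called at 2-fold (or 1.5-fold) with an interval that excluded equality. For 0 counts the upper limit was taken as 3 counts in that library. Host genes came from GENCODE M21 and sequences from RefSeq. The procedure was run on simulated Poisson counts with changes larger than any fold of the 7. These counts held no spread between animals and no reads shared between precursors, so the run bears on neither. All 7 members were named, with the 2 precursors next above and below in level looked up for each and, from each list, the 3 most abundant; extremes of lists were named after their values were seen. The leukocyte list held 3 names, of which miR-142 is listed in the files only as miR-142a and miR-142b and was left out of the sum. Members and lists were chosen with earlier results of these data known.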

Additional observations from a re-analysis of the deposited data

Results flagged for a closer look

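The share of listed counts outside all precursors, which entered no comparison, was 55.9% in the HC library, against 44.1% in NC. It is given because it was above the level in the control library.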

How the results depend on the processing

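With 1 library per group no replicate could be left out. No paired analysis was possible because each group holds 1 library. The count of members at 2-fold was 0 under all 6 alternatives, and the ratios within libraries were unchanged with the authors' scaled column. With plain totals the log2 folds were 0.17 for miR-126a, 0.15 for miR-126b, 0.11 for miR-221 and -0.17 for miR-222, and the medians 0.10 for the angiogenesis and 0.11 for the hypoxia list. With the authors' denominators they were -0.079 for miR-126a and -0.098 for miR-126b, both reversed, -0.14 for miR-221 and -0.42 for miR-222, with medians of -0.15 and -0.14. Without the 10 most abundant precursors in the totals they were 0.050 for miR-126a and 0.031 for miR-126b. DESeq2 size factors moved no value beyond its counting interval. These shifts follow from the construction of each scaling, which moves every fold alike. With 1 precursor per set of copies the hypoxia median was -0.052, over 14 precursors in place of 19. The depth gives narrow intervals for miR-126 and wide ones for miR-210 and miR-218, and none covers the spread between animals.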
